A study of Mus musculus with 10 samples.

Results

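Plasma cells are the antibody-secreting end stage of the B cell lineage, and 63 of the 9070 cells in a pair of single-cell libraries of mouse axillary lymph nodes met a rule for them. The rule asked for at least 5 unique molecular identifiers (UMIs, each standing for 1 captured RNA molecule) of Jchain, at least 2 of Mzb1 and at least 1 of Xbp1. It also asked for fewer than 3 UMIs of Col1a1 and Col3a1 together, none of Cdh5 and fewer than 3 of Lyz2, which limit droplets holding RNA of fibroblasts, endothelial cells or myeloid cells. A cell had at least 500 UMIs, of which at most 10% were mitochondrial. The whole series held 53477 such cells in 5 libraries. Members were thus chosen by their own UMIs of these genes, whose levels below are descriptions and were not tested.

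All mice were female wild-type BALB/c animals of 8 weeks. 4T1 mice carried 4T1 cells and 67NR mice carried 67NR cells, 2 mouse breast cancer cell lines, injected orthotopically into the fourth mammary fat pad, and their nodes were taken after 18 days at a tumour volume of 500 mm3. LPS mice received bacterial lipopolysaccharide under the skin 72 hours before collection, and naive mice were untreated. Each condition was 1 hashtag, an antibody-borne barcode, in each library, and the number of animals behind a hashtag was not given in the sources used here. A cell took a condition when the count of 1 hashtag was at least 10 and 3 times the next. The stromal library held 4T1, 67NR, LPS and naive cells, while the myeloid and stromal library held 4T1, 67NR and naive cells. Neither library was labelled as one of B-lineage cells, so how many were carried along in the preparation can set the shares below; its part was not tested.

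In a plasma cell the transcription factors Prdm1 and Irf4 silence the B cell programme, and Xbp1, spliced by the endoplasmic reticulum (ER) stress sensor Ern1, enlarges the secretory pathway. Jchain links IgM and IgA into polymers, Mzb1 is an ER cochaperone of antibody assembly, and Sdc1 encodes CD138, the classical surface marker. Before that stage, activated B cells change the constant region of their heavy chain from IgM to IgG, IgE or IgA by class switching and mutate their variable regions.

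The 9070 cells came from 2540 cells of the stromal library, at a median of 12812.5 UMIs, and 6530 of the myeloid and stromal library, at a median of 11265 UMIs. Those libraries held 36622159 and 94930947 gene UMIs in all. The 2 libraries shared 6 cell barcodes. Nearly every droplet carried a second hashtag of at least 10 counts (2533 cells of the stromal library and 6519 of the myeloid and stromal library), and the lowest second hashtag count of a member was 31. With 1 hashtag per condition and all members in 1 library, no test over samples could be made, and 2 libraries against 2 could not have given an exact two-sided permutation p below 0.333. Intervals below are 95% exact intervals, which cover counting error only.

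All 63 members were in the myeloid and stromal library, where they made up 0.965% of cells (exact Clopper-Pearson interval 0.742 to 1.23%). The stromal library held 0 of 2540 (interval 0 to 0.145%). In the myeloid and stromal library, members were 20 of 1501 cells of 4T1 nodes (1.33%, interval 0.816 to 2.05%), 29 of 1732 cells of 67NR nodes (1.67%, interval 1.12 to 2.4%) and 6 of 2180 cells of naive nodes (0.275%, interval 0.101 to 0.598%). The intervals of both tumour conditions overlapped each other and lay above that of naive nodes. Another 8 members were among the 1117 cells with no hashtag call. B cells of the same library, taken as cells with at least 2 UMIs of Cd79a, at least 1 of Ms4a1 and fewer than 5 of Jchain, numbered 54 from 4T1 nodes, 51 from 67NR nodes and, from naive nodes, 27. Members per 100 B cells came to 37.0 for 4T1, 56.9 for 67NR and 22.2 for naive nodes. In the stromal library the floors were 3 counts in 422 cells of 4T1 nodes (0.711%), 911 of 67NR nodes (0.329%), 610 of LPS nodes (0.492%) and 410 of naive nodes (0.732%). Those floors for 4T1 and 67NR nodes lay below the shares seen in the other library, and the naive floor lay above it.

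**Figure D1:**
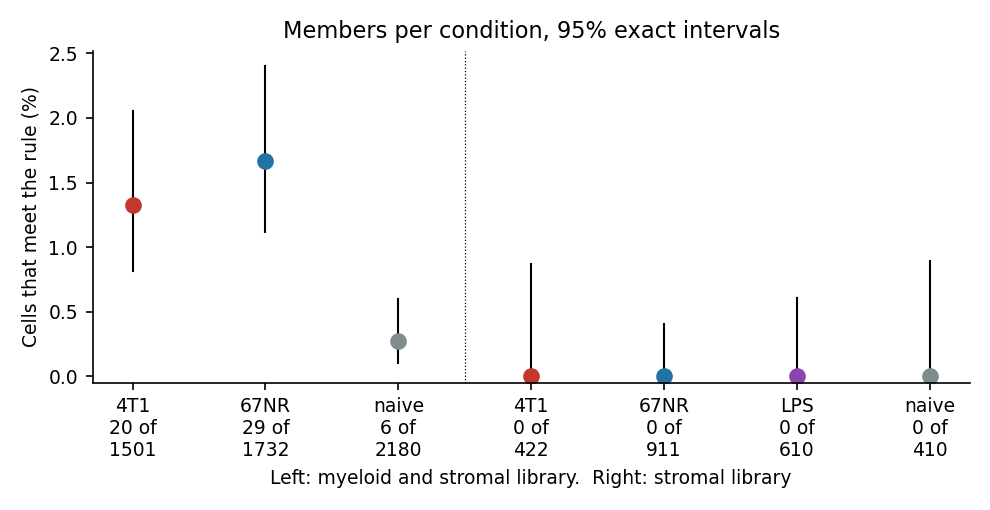
Share of cells that met the rule, in percent of the cells of each condition, with exact 95% Clopper-Pearson intervals. In the myeloid and stromal library the shares were 1.33% for 4T1, 1.67% for 67NR and 0.275% for naive nodes, and the stromal library held no such cell.

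The label did not describe all 63 cells alike. Jchain had a gap with no member between 40 and 217 UMIs. Above it lay 14 members with 217 to 4001 Jchain UMIs (median 1216), called Jchain-high here, and below it 49 members with 5 to 40 (median 12), called Jchain-low. The line at 100 UMIs between them was set after the values were seen, and no difference between them was tested.

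Jchain-high members carried the markers of the label. Sdc1 was detected in 12 of 14 of them, at 0 to 11 UMIs with a median of 4, and in 0 of 49 Jchain-low members. Prdm1, the repressor of the B cell programme, was detected in 11 of 14 Jchain-high members and in 1 of 49 Jchain-low members, which held 3 UMIs. Xbp1 ran from 5 over a median of 30 to 60 UMIs in Jchain-high members, against 1, 2 and 33 in Jchain-low members. Mzb1 ran from 3 over 117 to 498 UMIs in Jchain-high members, against 2, 14 and 46 in Jchain-low members. The Xbp1 and Mzb1 ranges overlapped, and the Jchain ranges did not. Immunoglobulin genes took 12.1 to 71.8% of the UMIs of a Jchain-high member (median 46.6%), against 0.155 to 1.88% of a Jchain-low member (median 0.712%).

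Jchain-low members instead carried genes of B cells. Pax5, the factor that holds B cell identity, had 0 UMIs in every Jchain-high member, against 3, 13 and 27 UMIs (lowest, median and highest) in Jchain-low members. Ms4a1, which encodes CD20, ran over 0, 0.5 and 9 UMIs in Jchain-high members, against 11, 25 and 62 in Jchain-low members, and the ranges of both genes were apart. S1pr2, a receptor that holds B cells inside germinal centres, was detected in 37 of the 49, and Bcl6, the master regulator of germinal centre B cells, in 40. The data therefore went against the label for 49 of 63 members, and these are given below by their Jchain level rather than by a cell type.

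**Figure D2:**
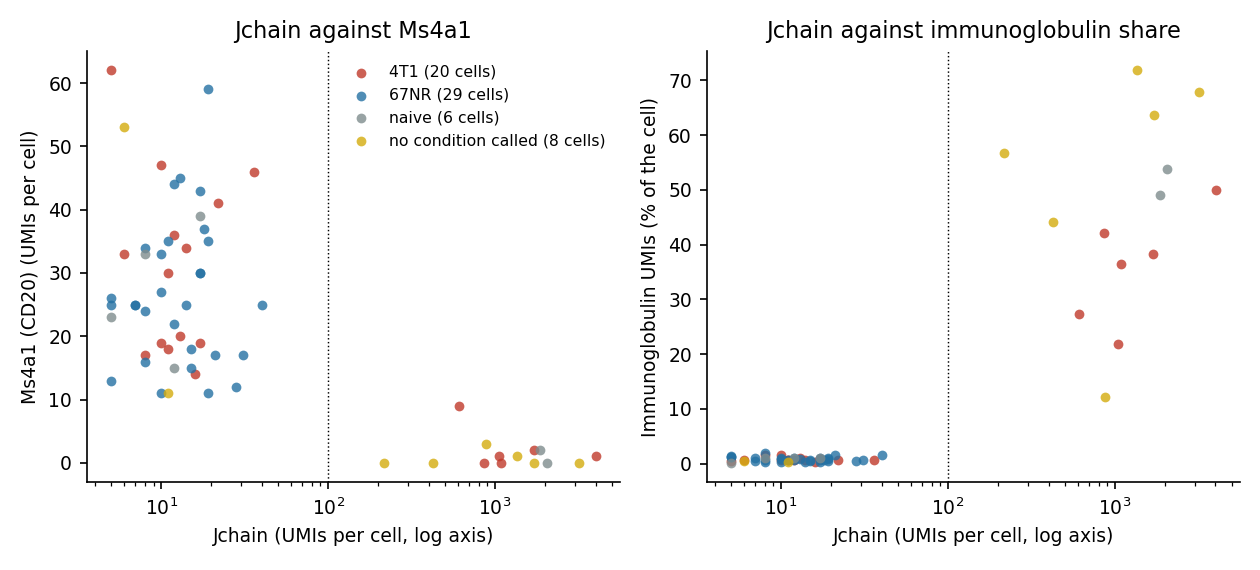
Jchain UMIs against Ms4a1 UMIs in each of the 63 members (left panel), and against the percent of the UMIs of the cell from immunoglobulin genes, with Jchain on a logarithmic axis, 1 point per cell and colours for conditions. The 14 members above 100 Jchain UMIs hold 0 to 9 Ms4a1 UMIs and 12.1 to 71.8% immunoglobulin, and the 49 below hold 11 to 62 and 0.155 to 1.88%.

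The 2 kinds of member were not spread alike over the conditions. Of the 20 members of 4T1 nodes, 6 were Jchain-high and 14 Jchain-low. In 67NR nodes 0 of 29 were Jchain-high, and in naive nodes 2 of 6 were. The other 6 Jchain-high members had no hashtag call, against 2 Jchain-low ones without it. Those 6 could belong to any condition, or to droplets with cells of 2 conditions, which was not tested. Their 2 highest hashtag counts were 1618 and 1429 in 1 member, the one with 12.1% immunoglobulin UMIs, and 762 and 463 in another. The lowest such counts were 37 and 31.

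Cells left out by the limits on other cell types change that picture. A further 8 cells of the myeloid and stromal library with 100 or more Jchain UMIs missed the rule, 6 of them through Lyz2, 1 through collagen and 1 through Xbp1 at 0. Of these 8 cells, 5 were from 4T1 nodes, 1 was from 67NR nodes with 476 Lyz2 UMIs, and 2 had no condition. The stromal library held 3 such cells, all from 67NR nodes, with 1858, 1483 and 709 Jchain UMIs and with 3, 38 and 50 UMIs of Col1a1 and Col3a1 together. Jchain-high cells were thus present in 67NR nodes, but none met the limits.

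At the edges of the rule, 5 members sat at exactly 5 Jchain UMIs and 1 cell that met every other condition sat at 4. Xbp1 was at 1 UMI in 23 members, and 28 cells that met every other condition had 0. Lyz2 was at 2 UMIs in 12 members and at 3 in 8 cells that met every other condition.

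All 14 Jchain-high members can be set side by side by their heavy chain. The 6 of 4T1 nodes had 4001, 1701, 1085, 1049, 858 and 607 Jchain UMIs. Their leading heavy chain genes were Ighm (4627 UMIs), Ighg2c (2659), Ighg2c (1424), Ighg1 (2532), Ighg2c (1636) and Ighg3 (1512), in the same order. The 2 of naive nodes had 2058 and 1869 Jchain UMIs and were both led by Ighm, with 6839 and 1524 UMIs. Of the 6 members with no condition, 3 were led by Ighm (11857, 7728 and 1578 UMIs), 2 by Ighg2c (6020 and 2921) and 1 by Ighe (954). Thus 5 of 6 Jchain-high members of 4T1 nodes were class switched and 0 of 2 of naive nodes were, at numbers too small to set apart.

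The isotype of each member was the heavy chain constant gene with at least 5 UMIs and 3 times the next. Over all 63 members, Ighg1 (chr12:113325240-113330523 on the reverse strand, GRCm38) led 35 (55.6%), Ighm 12, Ighg2c 6, Ighg3 1 and Ighe 1, while 8 were not called. No member was led by Igha. Ighg1 led 9 of 20 members of 4T1 nodes (45.0%, interval 23.1 to 68.5%), 25 of 29 of 67NR nodes (86.2%, interval 68.3 to 96.1%) and 0 of 6 of naive nodes. The intervals of the 2 tumour conditions overlapped only at their ends. Ighm led 2 of 20 members of 4T1 nodes, 3 of 29 of 67NR nodes and 4 of 6 of naive nodes (66.7%, interval 22.3 to 95.7%). Among Jchain-low members alone, Ighg1 led 8 of 14 in 4T1 nodes (57.1%, interval 28.9 to 82.3%) and 25 of 29 in 67NR nodes, where the intervals overlapped more widely. Ighg1 UMIs of these Jchain-low members had a lowest, median and highest value of 0, 11.5 and 53 in 4T1 nodes, against 0, 34 and 104 in 67NR nodes. As a share of all heavy chain constant UMIs, Ighg1 made up 71.4% in 4T1 nodes (265 UMIs) and 83.2% in 67NR nodes (996 UMIs).

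**Figure D3:**
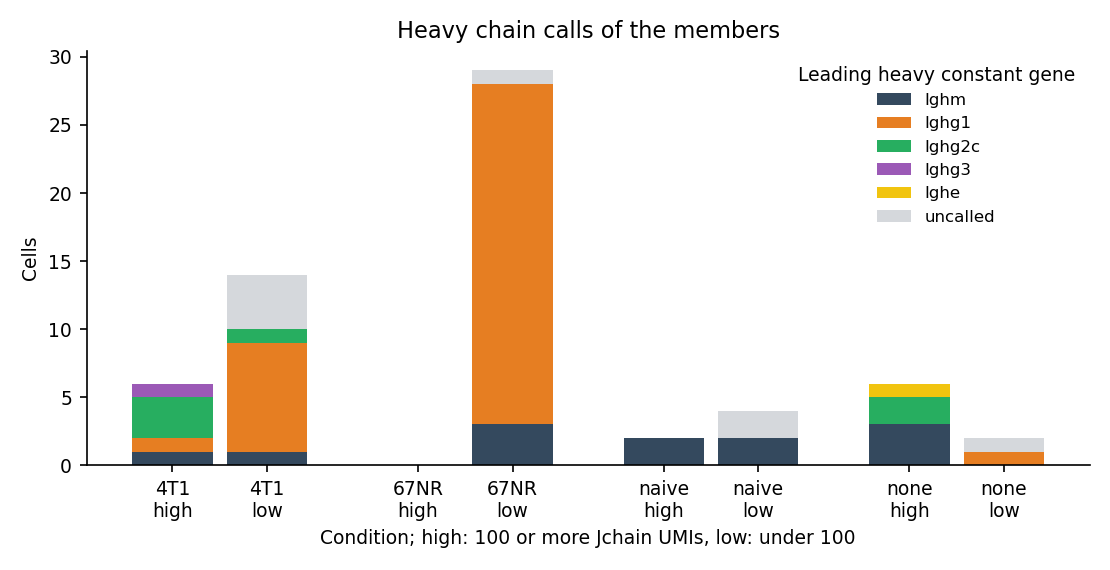
Number of members led by each heavy chain constant gene (bar segments), by condition (none: no hashtag call), with Jchain-high and Jchain-low members in bars of their own. Ighg1 led 25 of 29 members of 67NR nodes and 9 of 20 of 4T1 nodes.

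Free RNA was on average far below the median Jchain-low levels of Igkc and Ighg1. In 971 fibroblasts of the same library, which should make no antibody and had a median of 18130 UMIs, Igkc was detected in 39.2%, Ighm in 15.4%, Ighg1 in 6.69% and Jchain in 8.14%. The mean per fibroblast was 0.705 UMIs of Igkc and 0.109 of Ighg1, against medians of 104 and 21 in Jchain-low members. Single fibroblasts reached 32 Igkc and 25 Ighg1 UMIs, while the lowest values of Jchain-low members were 19 and 0. Jchain had a mean of 0.0937 UMIs per fibroblast, against a median of 12 in Jchain-low members. Fibroblasts were taken with fewer than 5 Jchain UMIs and members with at least 5, so that gap was set in advance. Ms4a1 was detected in 2.99% of these fibroblasts, against 49 of 49 Jchain-low members, whose median depth was 21763 UMIs.

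The light chain was kappa in 59 of 63 members (93.7%), uncalled in 4 and lambda in none. Kappa was called in 18 of 20 members of 4T1 nodes, 27 of 29 of 67NR nodes and 6 of 6 of naive nodes. Igkc made up 96.2 to 100% of the light chain constant UMIs of a Jchain-high member (median 99.3%), against 50 to 98.8% of a Jchain-low member (median 90.0%).

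Each B cell clone carries its own joined variable segments. By leading heavy and light segment, the Jchain-high members fell into 14 distinct pairs, 1 of them without a light segment of 3 UMIs. Segments were named on a reference of another strain, C57BL/6, so a name can stand for a relative. The leading heavy segment held 47 of 79 heavy segment UMIs in the member with 4001 Jchain UMIs and 33 of 33 in the one with 1347. In 13 of the 14 both leading segments had at least 3 UMIs. The first naive member paired Ighv1-64 with Igkv5-39 and the second paired Ighv2-9 with Igkv8-30, while the 4T1 member with the most Jchain paired Ighv4-1 with Igkv4-86. No 2 Jchain-high members shared a pair, but cells outside the rule did share one with a member. Ighv9-3 and Igkv10-96 led the member with 1716 Jchain UMIs, which had no condition. The same pair led a 4T1 cell with 1125 Jchain UMIs and a cell with no condition and 413, both outside the rule. Whether these cells came from 1 clone was not tested. Jchain-low members were too shallow in these genes, since 1 had a leading heavy segment of at least 3 UMIs and 7 a light one. Ighv1-47 was detected in 5 of 29 members of 67NR nodes (8 UMIs) and 0 of 20 of 4T1 nodes. It was also detected in 2 of 54 B cells and 2 of 171 fibroblasts of 4T1 nodes, in 1 of 51 B cells of 67NR nodes and in 1 fibroblast with no condition. Igkv4-62 was detected in 5 of 29 members of 67NR nodes (6 UMIs) and in 0 members of the other conditions, 0 B cells and 0 fibroblasts. Both segments were singled out after their values were seen.

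The Ighg2c calls rest on a reference that differs from the strain. BALB/c mice carry the Ighg2a gene where C57BL/6 mice, the source of the reference genome, carry Ighg2c, so reads of Ighg2a can only be counted on a relative. In the 6 members with at least 50 Ighg2c UMIs, of which 5 were led by Ighg2c and 1 by Ighg3, Ighg2b UMIs stood at 0.131 to 0.251 of those of Ighg2c. In 3 further cells with 100 or more Jchain UMIs that missed the rule the ratio was 0.242 to 0.335. Another 2 such cells were led by Ighg2b, with 2135 and 1635 UMIs, and held only 2 and 4 Ighg2c UMIs. UMIs of both genes thus stood together in the Ighg2c-rich cells, while the Ighg2b-led cells held hardly any of Ighg2c. In the reference, the coding sequences of Ighg2c and Ighg2b were identical at 85.9% of 1004 aligned bases and shared 56 of 955 windows of 50 bases (5.86%), with a longest common run of 78 bases. Ighg2c and Ighg1 were identical at 78.5% of aligned bases, shared 0 windows of that length and had a longest common run of 28 bases. Whether reads moved between these genes was not tested, and Ighg2c and Ighg2b levels are uncertain to that extent.

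A stretch of 60 coding bases was picked from the longest run shared by Ighg2c and Ighg2b. It shows their closest part, identical by that choice, and not a typical one. The bases are given 5′ to 3′ on the coding strand from GENCODE vM21 (GRCm38). Capitals in the Ighg1 line mark the 9 bases where it differs from Ighg2c. The stretches lie at chr12:113287878-113287937 for Ighg2c, chr12:113306878-113306937 for Ighg2b and chr12:113329474-113329533 for Ighg1, all on the reverse strand.
Ighg2c: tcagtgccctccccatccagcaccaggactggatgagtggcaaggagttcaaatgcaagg
Ighg2b: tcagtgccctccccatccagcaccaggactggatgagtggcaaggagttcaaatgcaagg
Ighg1: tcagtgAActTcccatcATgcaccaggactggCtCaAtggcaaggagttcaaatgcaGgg

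**Figure D4:**
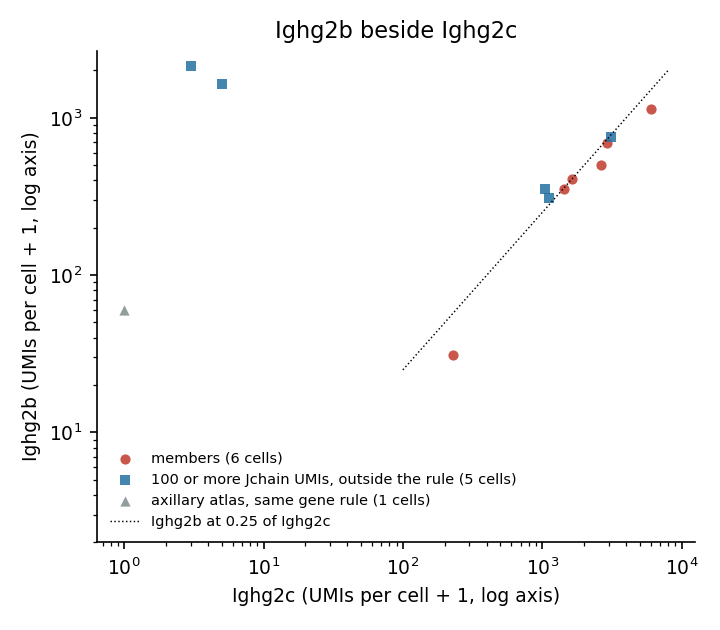
Ighg2b UMIs against Ighg2c UMIs, on logarithmic axes with 1 added, in members, in cells with 100 or more Jchain UMIs outside the rule and in cells of the naive axillary atlas, each with at least 50 UMIs of 1 of the 2 genes, and the dotted line marks Ighg2b at 0.25 of Ighg2c. The 6 members with at least 50 Ighg2c UMIs lie along a band where Ighg2b stands at 0.131 to 0.251 of Ighg2c, and 2 cells led by Ighg2b lie apart with 2 and 4 Ighg2c UMIs.

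Genes of the secretory pathway separated the 2 kinds of member. Levels are given from here as CPM, UMIs of a gene per 1000000 UMIs outside immunoglobulin genes, summed over the cells of a group, and a gene counts as higher or lower past a 2-fold ratio when the higher sum held at least 50 UMIs. Of 3863 genes measured, 9.58% were higher and 42.0% lower in Jchain-high than in Jchain-low members, with a median log2 ratio of -0.76. The sums held 277957 UMIs outside immunoglobulin genes in Jchain-high and 1127814 in Jchain-low members. A gene thus entered at a lower CPM through the Jchain-low sum, which favours genes lower in Jchain-high members. Since the rule asked for Jchain, Mzb1 and Xbp1 in the same cells, none of these ratios is a test, and a few abundant RNAs in Jchain-high cells lower the CPM of the rest.

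ER chaperones and folding enzymes were higher for 21 of 22 measured genes, with a median log2 ratio of 3.39. Hsp90b1, the ER form of Hsp90, stood at 7994 CPM in Jchain-high members, against 219 in Jchain-low members and 445 in B cells. Hspa5, the chaperone BiP that holds unpaired heavy chains, stood at 2727 CPM in Jchain-high members, against 275 in Jchain-low members and 489 in B cells. The disulphide isomerases Txndc5 (2428 against 56.7 CPM) and Pdia4 (1302 against 11.5 CPM) showed wider gaps between Jchain-high and Jchain-low members. Jchain-low members were thus no higher than B cells in Hsp90b1 and Hspa5. The oxidase Ero1lb was the 1 measured gene of the list not past 2-fold, at 248 CPM in Jchain-high and 342 in Jchain-low members. Fkbp11, a peptidyl-prolyl isomerase, stood at 770 CPM (214 UMIs in 13 cells) in Jchain-high members and had no UMI in Jchain-low members, so it was at least 289-fold higher, taken against 3 UMIs over the whole group.

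The machinery that takes nascent chains into the ER followed the same pattern, with 16 of 18 measured genes higher and a median log2 ratio of 2.71. Ssr4, a subunit of the translocon-associated complex, stood at 3537 CPM in Jchain-high against 122 in Jchain-low members, and Sec11c, a catalytic subunit of the signal peptidase, at 3461 against 144. N-glycosylation genes were higher for 7 of 9 measured, vesicle transport genes for 8 of 13 and outputs of ER stress for 7 of 9, with none lower in those 3 lists. Among the outputs, Edem1, which hands misfolded glycoproteins to degradation, stood at 1504 CPM in Jchain-high, 120 in Jchain-low members and 70.8 in B cells.

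Transcription factors of plasma cells were higher for 6 of 8 measured genes. Xbp1 (chr11:5520659-5525893) stood at 1547 CPM in Jchain-high members, against 129 in Jchain-low members and 54.0 in B cells. Prdm1 stood at 144, 2.66 and 4.58 CPM in the same order. Creb3l2, a membrane-bound factor of the secretory programme, stood at 288 CPM in Jchain-high members, with UMIs in all 14, and at 0.887 CPM in Jchain-low members, which held 1 UMI.

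Of the survival and niche receptors, 6 of 11 were higher and 2 lower. Tnfrsf17, which encodes BCMA, the receptor for plasma cell survival factors, had 75 UMIs in 8 of 14 Jchain-high members (270 CPM) and none in Jchain-low members or B cells. Ly6c2, a surface antigen found on monocytes and plasma cells, had 2227 CPM in Jchain-high members, against 0.887 in Jchain-low members and 40.2 in B cells. It was detected in all 14 Jchain-high members, including 2 naive members with 19 and 54 UMIs, against 19 to 67 in the 6 of 4T1 nodes. Slpi, a secreted protease inhibitor, was the gene outside the immunoglobulins with the third highest level in Jchain-high members, at 28281 CPM against 148 in Jchain-low members, or 18772 CPM without the 4T1 member that held most of it. Il10, the regulatory cytokine, had 106 UMIs in 7 Jchain-high members (381 CPM), and without 1 cell of 4T1 nodes that held 56 of them it stood at 193 CPM. It was at 56 and 15 UMIs in 2 members of 4T1 nodes and 0 in the other 4, was 0 in both naive members and was detected in 5 of 6 members with no condition.

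B cell identity genes were lower in Jchain-high members for all 16 measured, with a median log2 ratio of -3.56. Bach2, which restrains plasma cell fate, stood at 54.0 CPM in Jchain-high, 2586 in Jchain-low members and 1380 in B cells. Ebf1, a founding factor of the lineage, stood at 61.2, 2418 and 2821 CPM in the same order. MHC class II genes, which present antigen to T cells, were lower for 8 of 9, with H2-Aa at 655 CPM in Jchain-high, 2862 in Jchain-low members and 4320 in B cells. H2-Aa varied widely between single Jchain-high members, with 0, 3.5 and 73 UMIs as lowest, median and highest, against 28, 63 and 111 in Jchain-low members. Cell cycle genes were lower for all 17 measured and class switch and mutation genes for 5 of 6.

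**Figure D5:**
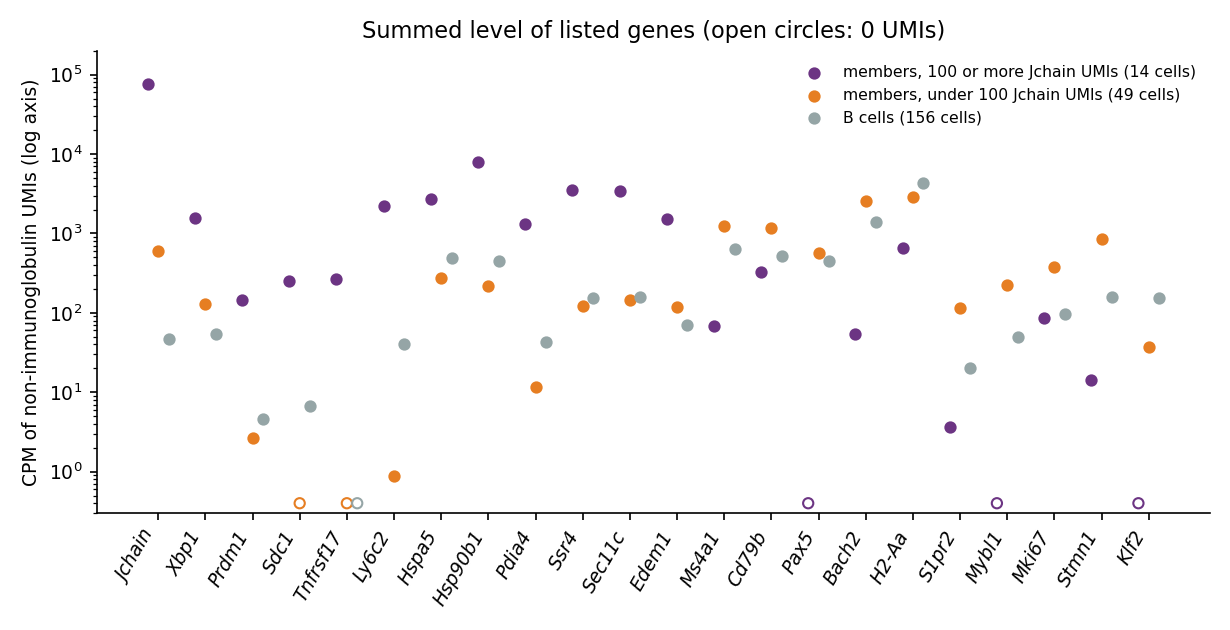
Summed level of chosen genes in CPM, on a logarithmic axis, in Jchain-high members, Jchain-low members and B cells of the myeloid and stromal library, with open circles for 0 UMIs. Secretory genes such as Hsp90b1 (7994, 219 and 445 CPM) stand high in Jchain-high members, while Bach2 (54.0, 2586 and 1380 CPM) stands low.

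Some of the ER chaperone genes, though not most, carry a known sequence. The ER stress element is a binding site of ATF6 and XBP1 found here as CCAAT, any 9 bases and CCACG, on either strand. In the 250 bases before the start of each gene in RefSeq (GRCm38.p6), it occurred in 7 of 19 ER chaperone genes with a promoter in the table (36.8%), against 35 of 27025 genes (0.13%). These 7 were Calr, Canx, Creld2, Dnajc3, Hsp90b1, Hspa5 and Pdia6. It occurred in 0 of 14 translocation genes, 0 of 10 N-glycosylation genes and 0 of 13 vesicle transport genes, which were higher too, and in 0 of 10 B cell identity genes. A match is a description of the letters in this window and no evidence of binding. The share among chaperone genes was not tested and is no independent support for their levels. The promoters of both chaperones with the highest levels among the 7 are given because they carry it, at 65 bases before the start in Hspa5 and at 212 and 107 bases in Hsp90b1, each as 250 bases 5′ to 3′ on the strand of the gene with the matching ends in capitals. Hspa5 lies on the forward strand at chr2:34771840-34772089 and Hsp90b1 on the reverse strand at chr10:86705445-86705694.
Hspa5: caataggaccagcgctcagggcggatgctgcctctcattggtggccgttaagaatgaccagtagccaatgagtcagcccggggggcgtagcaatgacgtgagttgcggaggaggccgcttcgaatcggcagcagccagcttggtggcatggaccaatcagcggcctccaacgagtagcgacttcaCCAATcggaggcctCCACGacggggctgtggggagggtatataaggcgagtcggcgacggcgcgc
Hsp90b1: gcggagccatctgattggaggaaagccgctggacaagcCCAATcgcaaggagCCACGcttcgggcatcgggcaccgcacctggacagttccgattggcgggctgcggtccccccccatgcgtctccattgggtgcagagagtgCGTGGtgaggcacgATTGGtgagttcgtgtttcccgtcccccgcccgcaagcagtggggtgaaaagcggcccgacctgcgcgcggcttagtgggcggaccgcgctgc

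Jchain-low members stood apart from B cells in the cell cycle and in several other lists. Of 6084 genes measured, 5.87% were higher and 17.4% lower in Jchain-low members. The B cell sum was larger, at 1964475 against 1127814 UMIs outside immunoglobulin genes, which favours genes lower in Jchain-low members. All 17 measured cell cycle genes were higher, with a median log2 ratio of 1.99, which was 2.11 against the 121 B cells that met the same limits on collagen, Cdh5 and Lyz2, where 6.47% of 4763 genes were higher and 11.1% lower. Rrm2, which makes deoxynucleotides for replication, stood at 222 CPM in Jchain-low members against 20.9 in B cells, or 12.9 without the B cell that held most of it. Stmn1, a microtubule regulator of dividing cells, stood at 848 against 159 CPM, and Hmgb2, a chromatin protein, at 2356 against 603 CPM. Mki67, the proliferation marker, reached at least 5 UMIs in 20 of 49 Jchain-low members (40.8%, interval 27 to 55.8%), against 8 of 156 B cells (5.13%). Depth differed between them, at medians of 21763 and 8734.5 UMIs. Every cell was then thinned once at random to 1000 UMIs outside immunoglobulin genes. Mki67 was detected in 22.4% of Jchain-low members (interval 11.8 to 36.6%) and 3.21% of B cells (interval 1.05 to 7.32%). Separate draws gave 35.7% for the Jchain-low members of 4T1 nodes and 34.5% for those of 67NR nodes, so the share moves between draws.

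Class switch and mutation genes were higher in Jchain-low members for 5 of 8 measured, and for 4 of 8 against the limited B cells. Polh, the polymerase that writes part of the mutations, stood at 177 CPM in Jchain-low members against 49.9 in B cells, and Mybl1, a transcription factor of germinal centre B cells, at 225 against 49.9. S1pr2 stood at 114 against 20.4 CPM. Trafficking receptors were lower for 7 of 10 measured genes. Ccr7, which leads cells to the T zone, stood at 73.6 CPM in Jchain-low members against 308 in B cells, and at 14.6 CPM without 1 naive member that held 67 of the 83 UMIs. Type I interferon response genes were lower for 6 of 7 measured and survival and niche receptors for 8 of 15. Against the limited B cells these were 1 of 3 and 3 of 10, and trafficking receptors 5 of 8. Of 16 B cell identity genes, 1 was higher and 1 lower. Dissociation stress genes were lower in Jchain-low members for 9 of 12 measured, which moves with these differences, and its part in them was not tested. Myeloid markers were lower for 7 of 7 against all B cells but for 1 of 3 against the limited ones, since B cells without those limits held a summed myeloid level of up to 126844 CPM.

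Markers of most other cell types tested were low in members, as the rule asked for some of them. Of the 8 T cell markers, 8 had no UMI in Jchain-high members and 7 had none in Jchain-low members. The summed myeloid level had a lowest, median and highest value of 107, 401 and 982 CPM in Jchain-high members and 0, 236 and 4187 CPM in Jchain-low members. For fibroblast markers these were 0, 52.6 and 348 CPM in Jchain-high members and 0, 31.0 and 425 CPM in Jchain-low members. Markers of plasmacytoid dendritic cells were the exception, at 537, 1301 and 2530 CPM in Jchain-high members, against 83.0, 337 and 1477 CPM in Jchain-low members and a median of 288 CPM in B cells. In Jchain-high members 3 of these 7 markers had no UMI, Siglech, the surface lectin of those cells, among them, while Tcf4, Bst2 and Ly6d stood at 576, 432 and 223 CPM. The part of such cells in these levels was not tested.

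The comparison of 4T1 with 67NR members addressed whether the 2 tumours leave different antibody-lineage cells in the draining node. Over all members, 5.58% of 2492 genes were higher and 6.46% lower in 4T1, and ER chaperones were higher for 18 of 21 measured genes. That count rests on the 6 Jchain-high members of 4T1 nodes, since 67NR nodes had none. Within Jchain-low members alone, 0.338% of 2364 genes were higher and 4.31% lower in 4T1. The sums held 348258 UMIs outside immunoglobulin genes in 4T1 and 635246 in 67NR, which favours genes lower in 4T1. In simulated sums of this size, 0.284% of unchanged genes passed 2-fold in either direction, near the share that was higher. ER chaperones were higher for 0 of 14 and lower for 1, and cell cycle genes passed 2-fold for 0 of 12 in the summed counts. The summed cell cycle level per cell had a lowest, median and highest value of 341, 8707 and 14187 CPM in Jchain-low members of 4T1 nodes, against 370, 1961 and 16741 CPM in those of 67NR nodes, so the medians were apart and the ranges overlapped. Mki67 reached at least 5 UMIs in 7 of 14 of them in 4T1 nodes (50%, interval 23 to 77%) and 10 of 29 in 67NR nodes (34.5%, interval 17.9 to 54.3%). Each side is 1 hashtag, so these ratios describe 14 and 29 cells.

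The 8 genes higher in the Jchain-low members of 4T1 nodes were led by Ifi27l2a, an interferon-induced gene, at 416 CPM (145 UMIs) in 4T1 against 165 CPM (105 UMIs) in 67NR. Its log2 ratio was 1.33, with an exact conditional interval of 0.96 to 1.71 for counting error. The summed level of the interferon response list had medians of 491 CPM in Jchain-low members of 4T1 nodes and 232 CPM in those of 67NR nodes, while the 4 of naive nodes had 593 CPM. Cenpe, a kinetochore motor, Rfc3, a replication clamp loader, and Rrm1, a subunit of ribonucleotide reductase, followed with log2 ratios of 1.28, 1.15 and 1.14. Among the lower genes, Satb1, a chromatin organiser, stood at 17.2 CPM in 4T1, with UMIs in 5 of 14 cells, against 21 of 29 cells of 67NR nodes, and its log2 ratio was -3.37 (interval -4.84 to -2.2). The ratios of Mfge8 (-4.91) and Clu (-4.56) came mostly from 1 cell of 67NR nodes, which held 85.5% and 90.7% of the 67NR UMIs of these genes. Ero1lb stood at 210 CPM in 4T1 against 452 in 67NR, a log2 ratio of -1.11 (interval -1.5 to -0.73). Bach2 (1918 against 3150 CPM) and Pax5 (425 against 677 CPM) were also lower in 4T1, by less than 2-fold.

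Against naive nodes, the members rest on 6 cells. In 4T1 members 14.8% of 1732 genes were higher and 3.98% lower, and in 67NR members 22.9% of 2382 were higher and 5.12% lower. Against the 4 Jchain-low members of naive nodes, 19.9% of 1239 genes were higher and 3.95% lower in Jchain-low members of 4T1 nodes, and 22.1% of 2373 higher and 3.58% lower in those of 67NR nodes. These comparisons share the naive cells. Sums outside immunoglobulin genes held 489171 UMIs in 4T1, 635246 in 67NR and 121779 in naive members, or 90235 in Jchain-low naive members. A gene thus entered at a lower CPM through a tumour sum, which favours genes higher than in naive members. Between Jchain-high members, values for the 6 of 4T1 nodes can be set beside the 2 of naive nodes, per cell and in CPM since depths differ. These are single cells and not replicates of a condition. Mzb1, a gene of the rule, ran from 3232 to 17341 CPM (59 to 498 UMIs) in 4T1 members. In naive members it stood at 3049 and 1952 CPM (54 and 27 UMIs). The values did not overlap, but the nearest cells held 59 and 54 UMIs. The 6 Jchain-high members with no condition ran from 1043 to 7834 CPM of Mzb1. Fkbp11 ran from 260 to 2416 CPM in 4T1 members, against 169 and 217 CPM in naive members, which held 3 UMIs each. The groups overlapped for Hsp90b1, at 3535 to 28240 CPM in 4T1 members against 1299 and 4265 CPM in naive members. They overlapped too for Hspa5, at 1214 to 9820 CPM in 4T1 members against 1807 and 1880 CPM in naive members. Slpi spanned 312 to 113162 CPM in 4T1 members, against 21964 and 1229 CPM in naive members. Tnfrsf17 was detected in 2 of 6 members of 4T1 nodes (7 and 16 UMIs) and in both naive members (18 and 4). In CPM these values overlapped, at 364 and 478 in 4T1 members against 1016 and 289 in naive members. Jun and Bcl2 were higher in both naive members without overlap. Jun stood at 734 and 940 CPM in them, against 0 to 329 CPM in 4T1 members. Bcl2 stood at 169 and 1880 CPM in naive members, against 0 to 151 CPM in 4T1 members. Cxcr3, a chemokine receptor of inflamed tissue, was detected in 3 of 6 members of 4T1 nodes, at 6, 1 and 7 UMIs, and in neither naive member.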

How the data were processed

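Counts were used as the authors deposited them: raw UMI counts per gene, hashtag or antibody and cell barcode, from 10x 3′ v3.1 libraries per the labels' protocols. Cell Ranger 7.0 and the mouse build mm10 are named in the submitters' processing notes. The steps between reads and counts were not otherwise given in the sources used here. Analysis used scipy 1.17.1, numpy 2.4.6 and pandas 2.3.3 under Python 3.11.15, and figures used matplotlib 3.10.9.

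Cells had at least 500 UMIs and at most 10% mitochondrial UMIs, and no doublet caller was run. Members, gene lists and tests were chosen with earlier results of these data known. edgeR's quasi-likelihood test was planned on sums per library and condition of at least 10 members each. The stromal library held none and naive nodes 6, so values are given with exact intervals instead: Clopper-Pearson for shares and conditional binomial for ratios of summed UMIs. UMIs are not independent samples of a condition, and these intervals cover counting error only. CPM divides summed UMIs by all UMIs outside 392 immunoglobulin genes. Ratios on simulated sums of the size of the 4T1 and 67NR members under 100 Jchain UMIs were tested with 2311 genes. Their 95% intervals held the true value for 95.4%. The simulated UMIs were drawn under the model the intervals assume, without spread between cells. This checks the computation only and not the coverage in real cells.

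Genes were named by a rule: the genes of the rule, the constant genes, the members of each list with the highest level, the 15 genes with the highest level, the leading variable segments and the 10 highest and 10 lowest changes between conditions. Its clause asking for the same sign in both libraries could not be applied. Other names were chosen after their values were seen. Counting is not stated to use strand, so overlapping genes are uncertain. Sequences came from GENCODE vM21 and RefSeq, both GRCm38, matched by symbol. Some genes of the lists are not reported here.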

Additional observations from a re-analysis of the deposited data

Results flagged for a closer look

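Cells that met the gene part of the rule were also present in libraries outside the comparisons above. The T cell library held 9 of 7755 cells (0.116%), of which 6 of 2432 were from 4T1, 1 of 2447 from 67NR and 1 of 2331 from naive nodes. Of these 9, 1 was Jchain-high. The atlas of naive axillary nodes held 182 of 11504 cells (1.58%), of which 3 were Jchain-high, and the atlas of naive mediastinal nodes held 14 of 25148 (0.0557%). Median depths of these 3 libraries were 11234, 6653 and 2272 UMIs, so their shares are not comparable.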

How the results depend on the processing

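Of the results that answer a comparison, 70 combinations of result and alternative stayed near the reported value and 26 moved. With Jchain at 20 or more, members were 8 of 4T1 (0.533%), 4 of 67NR (0.231%) and 2 of naive nodes (0.0917%), so the order of the tumour conditions turned. Kappa was then called in 100% of 4T1 and of 67NR members, and Ighg1 led 25% of 4T1 and 100% of 67NR members. With an isotype or light chain called at 50 UMIs and 10 times the next, Ighg1 led 15% of 4T1 and 17.2% of 67NR members, and kappa 65.0% of 4T1, 41.4% of 67NR and 50% of naive members, since Jchain-low members hold few such UMIs. Without the myeloid and stromal library, 0 members remained in each condition. Counts of genes past 2-fold moved too. Jchain-low members alone gave 8 higher and 102 lower in 4T1 than in 67NR. With CPM over all gene UMIs, 281 genes were lower in 4T1 than in 67NR, and in 67NR over naive 899 were higher and 78 lower. Leaving out the member with the most UMIs of each gene gave 488 higher and 27 lower in 4T1 over naive, and 939 higher and 62 lower in 67NR over naive. For dissociation stress genes in Jchain-low members over B cells, the median of per-cell log2 values gave a median difference of 0.00. No list's median log2 ratio changed sign under the alternatives run on it. Leaving out the member with the most UMIs of a gene, dropping the limits on collagen, Cdh5 and Lyz2, the line at 100 Jchain UMIs and the B cells under the members' limits were chosen after seeing the data.

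No paired analysis was possible because the conditions of a library are 1 hashtag each and all members lay in 1 library. The alternatives that need edgeR or DESeq2 were not run for the same reason, nor was the one without droplets with a second hashtag of at least 10, which leaves no member. Depth limits the Jchain-low calls of isotype and segment.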

Other observations

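The 182 cells of the naive axillary atlas that met the gene rule carried antibody measurements. Their median IgD count was 16, against 400 in B cells of that library. MHC class II stood at 324.5 against 214 and CD44 at 17 against 12. Their median depth was 14313 UMIs against 5595 in B cells, and these cells were not filtered for a condition. Their isotypes were Ighm in 79, Ighg1 in 53, Ighg2b in 17 and Ighg3 in 1, with 32 not called and none led by Ighg2c. Lambda was called in 4 of them. In the naive mediastinal atlas, 6 of 14 such cells were led by Ighg1 and 5 by Ighm.

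Interferon-induced genes were uneven among Jchain-high members. Their summed level had a lowest, median and highest value of 348, 1786 and 20540 CPM, against 50.2, 273 and 3354 CPM in Jchain-low members. Ifi27l2a ran from 3 to 335 UMIs in the 6 Jchain-high members of 4T1 nodes, against 27 and 26 in the naive ones. The metal-binding gene Mt1 ran from 1 to 236 UMIs in those of 4T1 nodes and was at 0 in both naive ones.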
